A study of Homo sapiens with 6 samples.

Results

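Integrins are cell-surface receptors built of 1 alpha and 1 beta subunit that tie the matrix outside a cell to its actin cytoskeleton. The alpha-v subunit, encoded by ITGAV, pairs with several beta subunits, and the partner sets which ligand the pair binds and whether it can release active TGF-beta from its latent complex. The discoidin domain receptors are tyrosine kinases that are switched on by collagen itself. The 9 genes described here are ITGAV, its beta partners ITGB3, ITGB5, ITGB6 and ITGB8, the fibronectin receptor subunit ITGA5, the collagen receptor subunit ITGA2, and the collagen-activated kinases DDR1 and DDR2. They were chosen by name as matrix receptors of carcinoma and stromal cells, and all 9 of them were found among the 38167 genes of the count table. ITGB6 and DDR1 are known mainly from carcinoma and other epithelial cells, ITGB3 from platelets, osteoclasts and endothelium, and DDR2 from fibroblasts and other mesenchymal cells. ITGAV, ITGB8 and ITGA2 are known from epithelial cells and from other cell types as well.

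The RNA came from small extracellular vesicles that spheroids of Cal27, an established squamous carcinoma line of the tongue, shed into their medium. One group of 3 libraries came from spheroids in stiff Matrigel (12 mg/mL) and the other group of 3 from spheroids in soft Matrigel (3 mg/mL), each labelled day 14. Matrigel is a gel of basement membrane proteins, so a change in its concentration also changes the amount of ligand around the cells. All libraries came from 1 cell line with no other cell type named, and vesicle RNA is only the part of the cell's RNA that leaves it.

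The short tail inside the cell sets ITGB8 apart from the other beta partners. In ITGB3, ITGB5 and ITGB6 the tail carries the motif NPxY (asparagine, proline, any residue, tyrosine), which talin binds when it activates an integrin. The sequences below are the last 120 coding bases of each beta partner, shown because they hold this motif in those partners and lack it in ITGB8. They are written 5′ to 3′ on the messenger strand and end in the stop codon, with in-frame NPxY codons in capitals (GENCODE release 29 transcripts, GRCh38).
ITGB3: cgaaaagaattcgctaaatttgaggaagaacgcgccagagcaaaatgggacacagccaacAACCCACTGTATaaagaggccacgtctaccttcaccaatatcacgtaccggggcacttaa
ITGB5: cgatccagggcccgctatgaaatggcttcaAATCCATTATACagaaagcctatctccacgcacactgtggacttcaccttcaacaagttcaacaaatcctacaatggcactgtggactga
ITGB6: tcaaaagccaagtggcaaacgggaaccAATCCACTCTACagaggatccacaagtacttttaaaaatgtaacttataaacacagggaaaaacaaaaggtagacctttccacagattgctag
ITGB8: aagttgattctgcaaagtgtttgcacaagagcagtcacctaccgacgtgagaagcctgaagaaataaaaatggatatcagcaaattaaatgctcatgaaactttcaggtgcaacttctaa
These bases lie on chromosome 17 from 47307584 to 47310204 (plus strand) for ITGB3, on chromosome 3 from 124763623 to 124764414 (minus strand) for ITGB5, on chromosome 2 from 160101736 to 160107699 (minus strand) for ITGB6 and on chromosome 7 from 20409878 to 20409997 (plus strand) for ITGB8, with introns inside the first 3 spans. The tail of ITGB3, ITGB5 and ITGB6 held 1 such motif each and that of ITGB8 held 0, and none was found elsewhere in the ITGB8 coding sequence either. GC content was 38.3% in the ITGB8 stretch, against 47.5%, 46.7% and 39.2% in ITGB3, ITGB5 and ITGB6. Over the whole coding sequence it was 42.7% in ITGB8, 54.7% in ITGB3, 55.8% in ITGB5 and 47.1% in ITGB6.

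Library totals were 2697502 to 2977837 counts in stiff and 2445498 to 2545385 in soft. Ribosomal RNA genes took 20.0% to 22.9% of counts in stiff and 2.97% to 8.87% in soft, where soft replicate 3 stood highest. Genes of the mitochondrial chromosome took 0.162% to 0.201% in stiff and 1.48% to 1.81% in soft. Values were therefore scaled by TMM, a factor from the middle of the distribution of genes, and given as CPM, the count scaled to library size. Each library had at least 1 count in 97.5% to 97.9% of all genes.

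None of the 9 receptor genes passed the test between stiff and soft Matrigel. The test was edgeR's quasi-likelihood test with Benjamini-Hochberg adjustment over all 31074 genes tested, with a call at an adjusted p under 0.05. Among all genes 140 were called, or 0.451%, 89 of them higher in stiff (0.286%) and 51 lower in stiff (0.164%). All 9 receptors passed the filter on low counts. At an unadjusted edgeR p under 0.05 there was 1 of 9, ITGB8, against 9.51% of all genes, and ITGB8 was also the 1 receptor whose CPM did not overlap between the groups, against 14.1% of all genes in either direction and 6.76% lower in stiff. The median log2 fold change of the 9 was -0.0021, and that of all genes tested was -0.0048. DESeq2 without its filter on mean count and limma-voom also called 0 of the 9. DESeq2 with that filter called 0 as well, but gave an adjusted p only for ITGB8, DDR1 and DDR2.

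**Figure D1:**
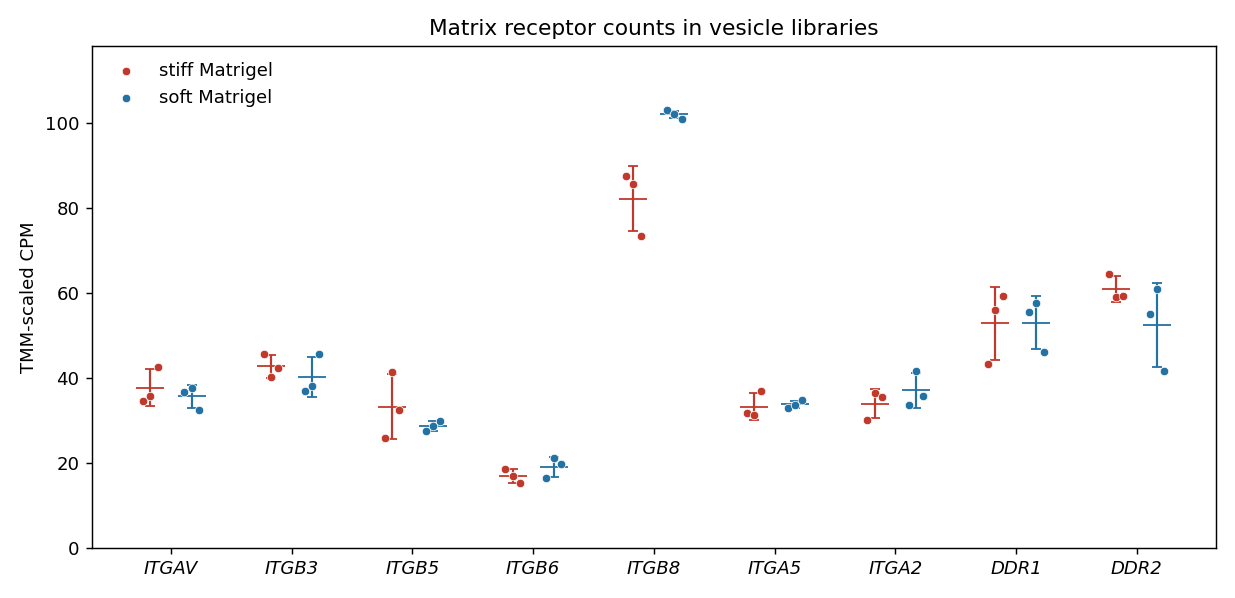
TMM-scaled CPM (y axis) of the 9 receptor genes (x axis) in each library, with stiff at the left and soft at the right of each gene; points are libraries, bars the mean ± SD of 3. ITGB8 is the gene whose groups are apart, at 73.4 to 87.6 CPM in stiff and 101 to 103 CPM in soft, and the other 8 overlap.

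ITGB8, the partner with no NPxY motif, forms the pair that binds the latent form of TGF-beta on epithelial and other cells. It had 213, 228 and 193 counts in stiff libraries and 281, 282 and 269 counts in soft libraries. Every stiff library was below every soft one, and the 3 soft libraries lay close together while stiff replicate 3 was the lowest of all. On the CPM scale ITGB8 stood at 82.2 ± 7.68 in stiff and 102 ± 0.826 in soft (SD, n = 3 each). The log2 fold change was -0.32 ± 0.096 (SE, 95% interval -0.50 to -0.13), or 0.803-fold, with an edgeR adjusted p = 0.128 that was 0.00112 before adjustment. An exact permutation test on the ITGB8 CPM gave p = 0.1, the smallest that 3 against 3 libraries allow. A difference in ITGB8 was thus not established. Even for a gene that differs, bulk vesicle RNA cannot tell fewer vesicles that carry a messenger from less of it per vesicle. How far the counts of ITGB8 or of any other receptor come from its messenger was not tested.

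The call on ITGB8 depended on scaling. With library totals alone, where the median of all genes moved to -0.27, ITGB8 had a log2 fold change of -0.58 and an edgeR adjusted p = 1.48e-05, while 13.5% of all genes were called there. Over 18 alternatives ITGB8 had 1 call, the one under library totals, with fold changes from -0.58 to -0.24, all below 0, and adjusted p from 1.48e-05 to 0.708. It was lowest in size without stiff replicate 3, at -0.24 (edgeR adjusted p = 0.521). ITGB8 lies on chromosome 7 from 20330702 to 20415754 (GRCh38, plus strand).

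ITGB8 is rich in A and T, with 37.8% GC in its longest transcript, and genes of low GC content were on the whole slightly lower in stiff. For 2167 protein-coding genes within 2 percentage points of its GC content the median log2 fold change was -0.04, and 10.5% of them had a lower value than ITGB8. After correction for GC content ITGB8 had a log2 fold change of -0.28 (edgeR adjusted p = 0.235). For DDR1, with 61.6% GC the richest of the receptors, genes of like GC content had a median log2 fold change of 0.06, and DDR1 itself had -0.0021.

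**Figure D2:**
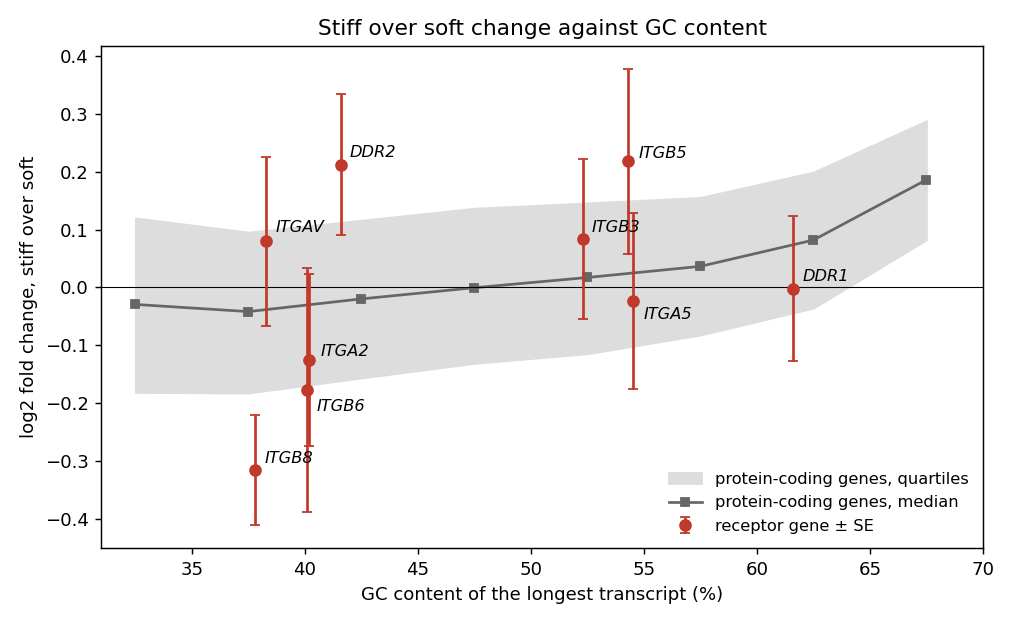
Log2 fold change of stiff over soft (y axis) against GC content of the longest transcript in percent (x axis); red points are the 9 receptors ± SE, and the grey line and band are the median and quartiles of protein-coding genes in steps of 5 points of GC. The grey median climbs with GC, from -0.04 at 35 to 40% to 0.08 at 60 to 65%, and ITGB8 lies below the band.

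Of the 12 protein-coding genes within 2 Mb of ITGB8, 8 had a log2 fold change below 0, with a median of -0.18 and 0 called by edgeR, while over all genes 15264 of 31074 had a value above 0. The nearest on one side was ABCB5, a membrane transporter known from pigment cells and melanoma, at 50.7 CPM in stiff and 63.9 CPM in soft (log2 fold change -0.33, edgeR adjusted p = 0.244). The nearest on the other was MACC1, a gene known as a driver of metastasis in colon cancer, at 48.4 CPM in stiff and 55.9 CPM in soft (-0.21, edgeR adjusted p = 0.620). SP4, a zinc-finger transcription factor, stood at 60.6 CPM in stiff and 71.8 CPM in soft (-0.25, edgeR adjusted p = 0.444). FERD3L had the lowest value (-0.42, edgeR adjusted p = 0.662), at 9.44 CPM in stiff and 12.6 CPM in soft. TWIST1 (0.15), SP8 (0.10), RAPGEF5 (0.11) and HDAC9 (0.0048) had values above 0. GC content was 40.6% for ABCB5, 37.2% for MACC1, 38.6% for SP4 and 62.5% for FERD3L. It was 57.2% for TWIST1, 54.2% for SP8, 43.3% for RAPGEF5 and 40.2% for HDAC9. The part of GC content in these values was not tested. Around the other 8 receptors the median log2 fold change of neighbours lay between -0.12, for the 8 neighbours of ITGAV, of which 6 were below 0 while ITGAV itself was above it, and 0.02, for the 30 of ITGB5.

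**Figure D3:**
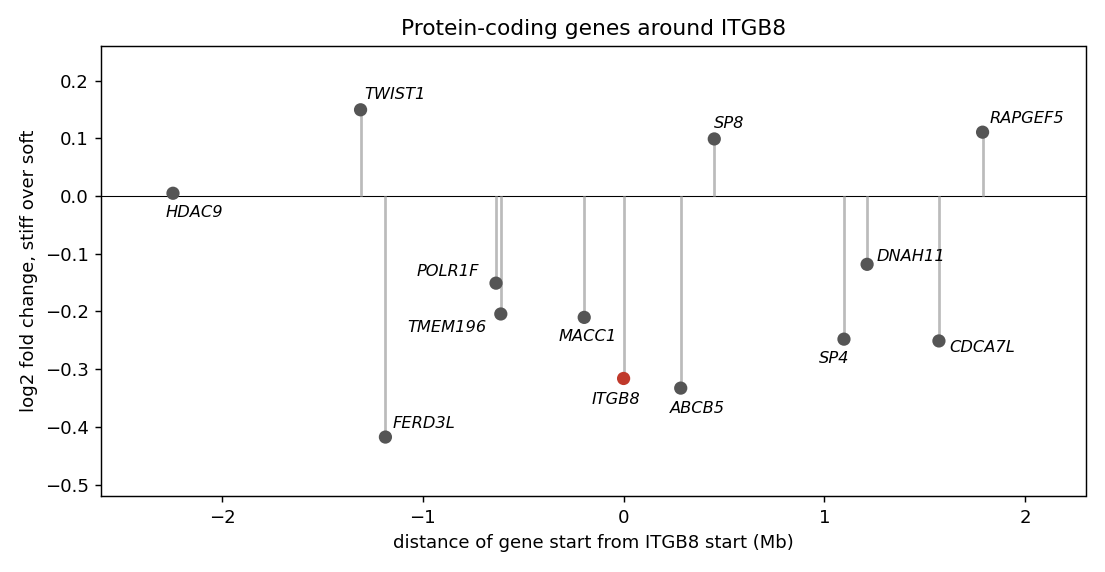
Log2 fold change of stiff over soft (y axis) of ITGB8, in red, and of the 12 protein-coding genes within 2 Mb of it, in grey, against the distance of their starts from the ITGB8 start in Mb (x axis). ITGB8 at -0.32 sits between MACC1 at -0.21 and ABCB5 at -0.33.

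The other beta partners showed no difference beyond the spread of the libraries. ITGB3, the partner in the classic vitronectin receptor, had 111, 107 and 111 counts in stiff and 101, 105 and 121 in soft. The groups overlapped, and the log2 fold change of ITGB3 was 0.08 ± 0.14 (SE, 95% interval -0.19 to 0.36, edgeR adjusted p = 0.911). Omitting single libraries gave ITGB3 values from 0.03, with soft replicate 1 omitted, to 0.19, with soft replicate 3 omitted. ITGB5, a vitronectin receptor subunit of many adherent cells, had 63, 110 and 85 counts in stiff and 75, 79 and 79 in soft. Here the stiff libraries spread widely around a tight soft group, and the log2 fold change of ITGB5 was 0.22 ± 0.16 (95% interval -0.10 to 0.53, edgeR adjusted p = 0.715). That value rested on stiff replicate 2, since it was 0.03 without it and 0.36 without stiff replicate 1. ITGB6, an epithelial subunit that is raised in many squamous carcinomas and activates TGF-beta, had 45, 45 and 40 counts in stiff and 45, 58 and 52 in soft. It was the receptor with the fewest counts, its groups overlapped, and its log2 fold change was -0.18 ± 0.21 (95% interval -0.59 to 0.24, edgeR adjusted p = 0.857). Leaving out soft replicate 2 gave -0.10, and leaving out soft replicate 1 gave -0.27.

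ITGAV itself, the shared alpha chain, had 84, 95 and 112 counts in stiff and 100, 104 and 86 in soft. The groups overlapped, with stiff replicate 3 the highest and soft replicate 3 the lowest library by CPM, at 37.6 ± 4.36 CPM in stiff and 35.6 ± 2.79 CPM in soft (SD, n = 3 each), with a log2 fold change of 0.08 ± 0.15 (SE, 95% interval -0.21 to 0.37, edgeR adjusted p = 0.921) that was -0.02 without stiff replicate 3. The ratio of ITGB8 to ITGAV counts was 2.54, 2.40 and 1.72 in stiff libraries and 2.81, 2.71 and 3.13 in soft libraries, so every stiff value was below every soft one. As a share of the 4 beta partners, each counted per kb of exon, ITGB8 made up 22.7% ± 1.31 in stiff and 27.7% ± 1.84 in soft. ITGB3 made up 40.7% ± 3.37 in stiff and 37.4% ± 2.37 in soft, ITGB5 21.5% ± 4.61 in stiff and 18.2% ± 0.343 in soft, and ITGB6 15.1% ± 1.13 in stiff and 16.6% ± 1.62 in soft. ITGB8 was the partner whose shares did not overlap between the groups, at 21.3% to 23.9% in stiff and 25.9% to 29.5% in soft. The ratio and the share both use the ITGB8 counts given above, for which no difference was established, so neither is a separate result. How often ratios or shares of other genes do not overlap was not obtained. In raw counts, with no division by length, ITGB8 was 45.0% to 49.3% of the partners' counts in stiff and 51.6% to 56.0% in soft, and the 95% Wilson intervals of single libraries, which cover counting error only, ran from 40.3% to 54.0% in stiff and from 47.3% to 60.3% in soft.

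**Figure D4:**
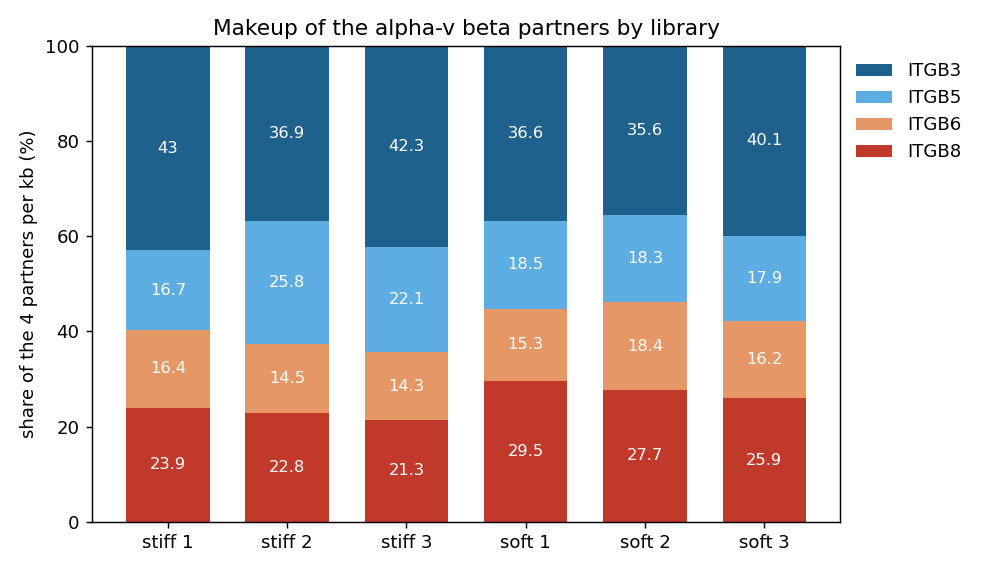
Share in percent (y axis) of ITGB3, ITGB5, ITGB6 and ITGB8 in their summed CPM per kb of exon, 1 bar per library (x axis), stiff at the left. ITGB8, at the foot of each bar, makes up 21.3% to 23.9% in stiff and 25.9% to 29.5% in soft.

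The remaining integrin subunits of the group gave no call, and their intervals held 0. ITGA5, which pairs with ITGB1 to bind fibronectin, had 77, 83 and 97 counts in stiff and 90, 93 and 92 in soft. Its soft libraries lay inside the range of the stiff ones, with a log2 fold change of -0.02 ± 0.15 (SE, 95% interval -0.32 to 0.28, edgeR adjusted p = 0.984). ITGA2, which pairs with ITGB1 to bind fibrillar collagen, had 73, 97 and 93 counts in stiff and 92, 115 and 95 in soft. These groups overlapped as well, and the log2 fold change of ITGA2 was -0.13 ± 0.15 (95% interval -0.42 to 0.17, edgeR adjusted p = 0.856). It was nearer 0 without soft replicate 2 (-0.03) or stiff replicate 1 (-0.05).

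The collagen-activated kinases gave no call either. DDR1, the epithelial member, had 105, 149 and 156 counts in stiff and 151, 159 and 122 in soft, or 52.8 ± 8.51 CPM in stiff and 53.0 ± 6.16 CPM in soft (SD, n = 3 each). Each group held 1 low library, and the log2 fold change of DDR1 was -0.0021 ± 0.13 (SE, 95% interval -0.25 to 0.25, edgeR adjusted p = 0.998). DDR2, the mesenchymal member, had 157, 157 and 156 counts in stiff and 150, 168 and 110 in soft. The low soft value was replicate 3, and the log2 fold change of DDR2 was 0.21 ± 0.12 (95% interval -0.03 to 0.45, edgeR adjusted p = 0.602), or 0.08 without that library and 0.33 without soft replicate 2. The DDR2 to DDR1 count ratio was 1.5, 1.05 and 1.0 in stiff libraries and 0.993, 1.06 and 0.902 in soft libraries, so the groups overlapped.

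Levels were set beside those of genes that these cells are not known to use. Olfactory receptor genes, which as a rule are silent outside the nose, served as the set to compare with. All 381 of them had counts, at a median of 4.28 CPM per kb of exon over the 6 libraries (quartiles 3.33 and 5.84). Their median GC content was 43.1%. Within 2 percentage points of the GC content of DDR1 there were 0 of them, and 10 each for ITGB5 and ITGA5. For these 3 receptors the set is thus a poor match in GC content. The 9 matrix receptors had a median of 4.79 CPM per kb, from 3.83 for ITGB6 to 9.43 for ITGB3. Of the 9, 8 were above the olfactory median and ITGB6 was below it, while 7 lay between the olfactory quartiles. This reading depended on the length and the set. Per kb of the longest transcript 4 lay between the quartiles and 5 above the upper one (ITGB3, ITGB5, ITGB8, ITGA5 and DDR1), and against the 320 olfactory genes that passed the filter on low counts 5 of 9 were above the median and 8 between the quartiles. Per kb of exon over the 6 libraries the 2 above the upper quartile were ITGB3, at 9.71 ± 0.630 CPM per kb in stiff and 9.16 ± 1.07 in soft (SD, n = 3 each), and ITGB8, at 5.42 ± 0.507 in stiff and 6.74 ± 0.0545 in soft. All 3 stiff libraries of ITGB8 were below that quartile and all 3 soft libraries above it. ITGB6 had 3.60 ± 0.351 CPM per kb in stiff and 4.06 ± 0.492 in soft, ITGAV 4.58 ± 0.531 in stiff and 4.33 ± 0.339 in soft, and DDR1 5.79 ± 0.933 in stiff and 5.81 ± 0.675 in soft.

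In the order of mean levels per kb of exon, ITGB3 came first and did not overlap with any other receptor, with its lowest library at 8.43 CPM per kb and the highest library of ITGB8 at 6.80. Next came ITGB8, DDR1, DDR2, ITGB5, ITGA2, ITGAV, ITGA5 and ITGB6, and each of these overlapped with its neighbour in the order over the 6 libraries. The order depended on the length used. Per kb of the longest transcript DDR1 led with 12.8 CPM per kb, followed by ITGB8 with 10.5 and ITGB3 with 10.4, ITGB6 was lowest with 3.84, and the olfactory median was 4.32.

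Counts per kb climbed with GC content over all protein-coding genes, from a median of 3.78 CPM per kb at 35 to 40% GC to 12.1 at 60 to 65%, so each receptor was also set beside genes within 2 percentage points of its own GC content. ITGB8 stood at 1.62 times the median of such genes and ITGB3 at 1.41 times. ITGAV (1.16), DDR2 (1.21), ITGA2 (1.08) and ITGB6 (0.929) were near that median. ITGB5 (0.656), ITGA5 (0.599) and DDR1 (0.515) were below it, DDR1 at a percentile of 4.82. Per kb of the longest transcript these ratios were 2.22 for ITGB8, 1.19 for ITGB3, 1.07 for ITGAV, 0.98 for DDR2, 0.867 for DDR1, 0.851 for ITGA2, 0.738 for ITGB5, 0.728 for ITGB6 and 0.692 for ITGA5. On its own chromosome ITGB8 had 1.40 times the median of 109 genes of like GC content, and its 12 neighbours had a median of 8.89 CPM per kb.

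**Figure D5:**
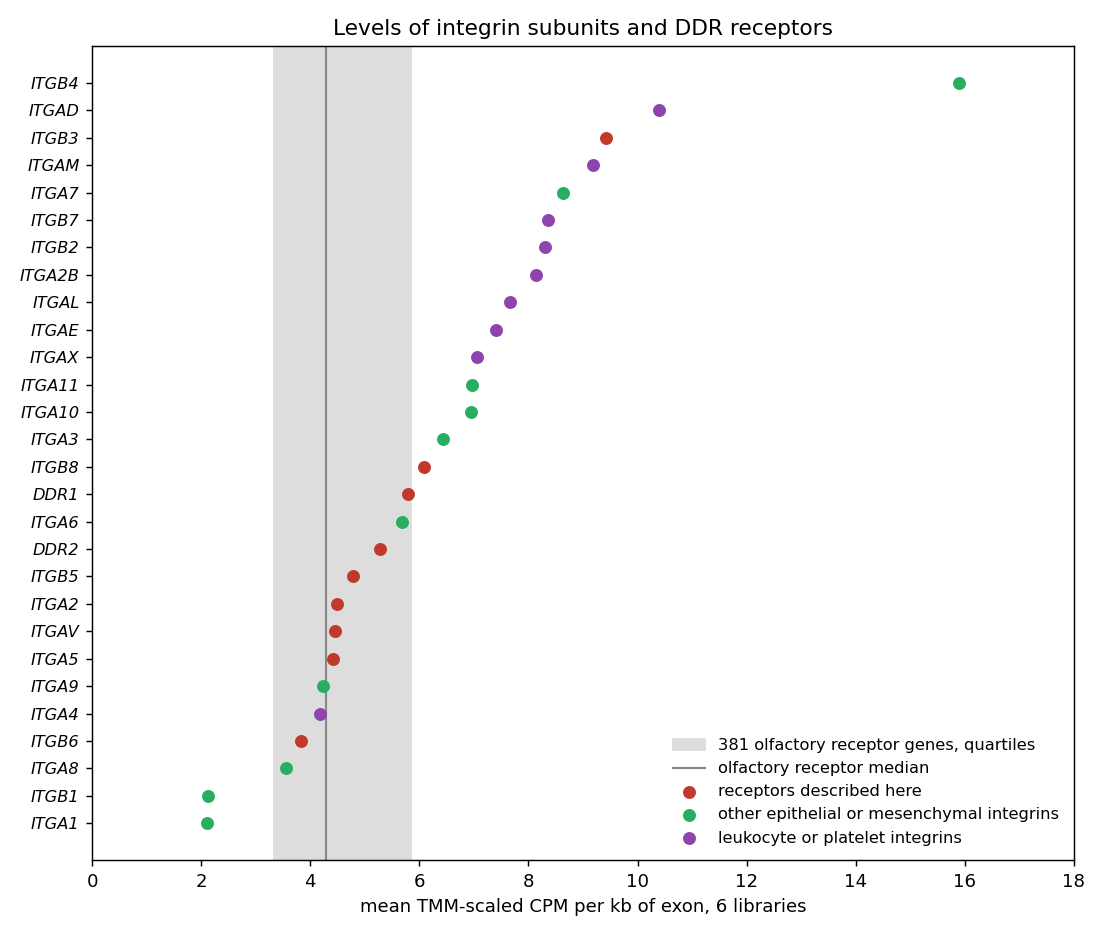
Mean TMM-scaled CPM per kb of exon over the 6 libraries (x axis) of the 26 integrin subunits and both DDR genes (y axis, ordered by level); the grey band and line are the quartiles and median of 381 olfactory receptor genes. Of the 9 receptors described here, in red, 7 lie inside the band, and leukocyte or platelet subunits, in purple, lie mostly to its right.

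Among all 26 integrin subunits, those of blood cells had the highest median level of the 3 groups set side by side. The 9 leukocyte and platelet subunits had a median of 8.14 CPM per kb at a median GC content of 56.3%, against 6.05 at 49.3% for 10 other subunits of epithelial and mesenchymal cells. The 9 receptors, which hold the kinases DDR1 and DDR2 besides integrin subunits, had 4.79 at 41.6%. ITGAD, a leukocyte subunit, came next after the top gene at 10.4 CPM per kb, and ITGAM of myeloid cells followed ITGB3 at 9.19. The top gene was ITGB4 of the hemidesmosome, with 15.9 CPM per kb at 63.7% GC. ITGB1, the beta chain that ITGA2 and ITGA5 need and a partner of ITGAV as well, was the lowest but for ITGA1, at 2.13 CPM per kb, chosen for mention after its value was seen. It had 28, 31 and 31 counts in stiff and 49, 23 and 41 in soft, which overlap (log2 fold change -0.25 ± 0.25, edgeR adjusted p = 0.813), and its level was 0.518 times the median of genes of like GC content.

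The marker lists did not single out squamous cells by level. Squamous and other epithelial markers had a median of 7.02 CPM per kb, with SFN highest at 17.4, against 6.42 for leukocyte, 5.42 for endothelial, 3.63 for fibroblast and 11.2 for platelet markers. Median GC content had the same order, at 57.3% for platelet, 55.8% for epithelial, 55.4% for leukocyte, 53.9% for endothelial and 42.3% for fibroblast markers. The part of GC content in these levels was not tested. CD14 of monocytes had 12.3 CPM per kb and GP9 of platelets 18.9, beside 11.8 for the basal keratin gene KRT14. Of these lists' genes 1, PPBP of platelets, had a library at 0. Their summed levels were 374 to 397 CPM in stiff and 342 to 352 CPM in soft for the 12 epithelial markers, and the groups did not overlap. KRT14 alone stood at 33.4 CPM in stiff and 20.6 CPM in soft, and 7 of the 12 had a log2 fold change above 0. How often sums of genes do not overlap was not obtained. The sums of the other 4 marker lists overlapped, at 369 to 379 CPM in stiff and 352 to 373 CPM in soft for 10 fibroblast markers, and at 259 to 271 CPM in stiff and 238 to 266 CPM in soft for 7 endothelial markers. They were 138 to 145 CPM in stiff and 133 to 160 CPM in soft for 7 leukocyte markers, and 126 to 130 CPM in stiff and 124 to 132 CPM in soft for 6 platelet markers. The part of these genes in the receptor values was not tested.

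At an unadjusted edgeR p under 0.05 there were 4 of 12 epithelial markers, 1 of 7 endothelial and 1 of 5 platelet markers tested, and 0 of the fibroblast and leukocyte markers, against 9.51% of all genes. KRT14 was the 1 marker called, against 0.451% of all genes, higher in stiff, at 33.4 ± 6.17 CPM in stiff and 20.6 ± 3.80 CPM in soft (SD, n = 3 each; log2 fold change 0.69 ± 0.17, edgeR adjusted p = 0.0281). The KRT14 log2 fold change was 0.43 to 0.86 over 17 alternatives, lowest under library totals alone. Over all 17 the adjusted p ran from 0.0130 (edgeR, without soft replicate 2) to 0.347 (DESeq2 without its filter). The call was lost under 9 of them, with an edgeR adjusted p = 0.0680 after GC correction. Among the 9 were also the edgeR fits without stiff replicate 1 (0.137), stiff replicate 2 (0.320), soft replicate 1 (0.158) and soft replicate 3 (0.11). No other marker was called, with FAP of activated fibroblasts at 40.6 CPM in stiff and 47.3 CPM in soft, CLDN5 of endothelial junctions at 54.4 CPM in stiff and 43.6 CPM in soft, the pan-leukocyte PTPRC at 27.8 CPM in stiff and 32.0 CPM in soft, and GP1BA of platelets at 19.4 CPM in stiff and 25.4 CPM in soft. COL1A1, the fibroblast marker of highest level per kb, had 90.0 CPM in stiff and 92.3 CPM in soft.

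Ligands, partners and adaptors of the receptors gave no call in either direction. Among the other integrins of epithelial and mesenchymal cells 0 of 10 were called by edgeR, with 0 at an unadjusted p under 0.05 and a median log2 fold change of -0.04. ITGA3, a laminin receptor subunit, had the smallest p (67.4 CPM in stiff and 58.7 CPM in soft, edgeR adjusted p = 0.613). Of 9 leukocyte and platelet subunits 0 were called, 0 had an unadjusted p under 0.05 and the median was 0.02, with ITGB7 at 34.8 CPM in stiff and 40.1 CPM in soft (edgeR adjusted p = 0.697).

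Proteins that bind these receptors through the RGD motif, or hold latent TGF-beta, had 0 called of 17 tested, 1 at an unadjusted p under 0.05 and a median of -0.04. Their summed level was 907 to 930 CPM in stiff and 932 to 940 CPM in soft, which did not overlap. That gene was FBN2, a fibrillin of elastic microfibrils, at 46.6 CPM in stiff and 55.7 CPM in soft (edgeR adjusted p = 0.512), and LTBP3, which holds latent TGF-beta, had the highest level at 16.6 CPM per kb. Collagens had 0 of 16 called, 1 at an unadjusted p under 0.05 and a median of 0.0018. COL4A4, a chain of basement membrane collagen IV, had 60.4 CPM in stiff and 71.5 CPM in soft (edgeR adjusted p = 0.448), and COL5A1, the most abundant per kb at 17.2, had 191 CPM in stiff and 194 CPM in soft.

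Other collagen receptors had 0 of 5 called and 1 at an unadjusted p under 0.05, GP6 of platelets, at 23.9 CPM in stiff and 18.1 CPM in soft (edgeR adjusted p = 0.514), with a list median of 0.08 and MRC2, a collagen uptake receptor, highest at 13.6 CPM per kb. The summed level of these 5 was 226 to 227 CPM in stiff and 213 to 215 CPM in soft, again without overlap. Sums overlapped for the 9 receptors, at 382 to 402 CPM in stiff and 387 to 421 CPM in soft. They also overlapped for collagens, at 1060 to 1090 CPM in stiff and 1060 to 1070 CPM in soft. So did the sums of both lists of other integrins, of integrin activators and adaptors, and of DDR adaptors. Of all single genes 14.1% did not overlap in either direction, and no such share was obtained for sums. Activators and adaptors that work on integrin tails, among them talins and kindlins, had 0 of 31 called, 0 at an unadjusted p under 0.05 and a median of -0.02. FLNA, the actin cross-linker filamin A, had 112 CPM in stiff and 100 CPM in soft (edgeR adjusted p = 0.609). FERMT3, the kindlin of blood cells, had the highest level of these at 22.8 CPM per kb. Adaptors and shedding enzymes of the DDR kinases had 0 of 7 called, with a median of 0.01. NCK2, an SH2 and SH3 adaptor, was the 1 at an unadjusted p under 0.05, with 141, 142 and 118 counts in stiff and 110, 106 and 106 in soft (log2 fold change 0.39 ± 0.13, edgeR adjusted p = 0.205).

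Genes with a profile most like that of ITGB8 were sought by Pearson correlation of log2 CPM over the 6 libraries. The closest were LOC107984696 (r = 0.99), BZW1, a regulator of translation start (r = 0.99), and LOC101928264 (r = 0.99). BZW1 had 72, 79 and 66 counts in stiff and 103, 102 and 95 in soft (log2 fold change -0.39, edgeR adjusted p = 0.328). With 6 points and 31073 genes compared, 82 genes had r above 0.95, so the list describes these libraries only.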

How the data were processed

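Per the labels, vesicles were taken from medium by insulator-based dielectrophoresis, and total RNA was made into directional libraries read in pairs. The deposited values were raw counts per gene symbol, not normalized by the authors. The submitters' processing notes name Trim Galore 0.4.2, cutadapt 1.9.1, FastQC 0.11.7, STAR 2.6.1e, featureCounts 1.6.2, DESeq2 1.26.0 and hg38, without roles. The annotation, the strand setting and the handling of shared reads are not given in the sources used here. In GENCODE release 29, 51.6% of ITGB3 exon bases and 20.6% of ITGB6 exon bases are shared with another gene on the same strand (AC068234.1 and AC092153.1, neither in the count table), and DDR1 holds MIR4640. Reads of ITGB3 and ITGB6 there cannot be assigned with certainty.

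The contrast of stiff over soft was fitted in R 4.3.3 with edgeR 4.0.16 (TMM, filterByExpr, which removed 7093 genes, and robust two-sided quasi-likelihood F tests on group alone). SE was derived from F, and intervals are 95%. DESeq2 1.42.0 and limma-voom 3.58.1 were alternatives. The fit was tested on simulated data. Exon length (all exons of a gene merged), longest transcript and its GC content came from GENCODE release 29, which matched 27214 of 38167 symbols (71.3%) and all 9 receptors. The exons over which reads were counted may differ from these, so levels, order and shares per kb are approximate. The GC correction fits a smooth curve (span 0.3) per library.

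No pair of replicates looked like 1 library deposited again (chi-square per degree of freedom 1.53 to 3.86 over 34003 to 34417 genes). The labels call them biological replicates but do not say that they came from separate cultures, so the spread may be partly technical. Counts of PCR reads are not independent molecules. Replicate numbers are those of the titles, since 2 stiff libraries share a number in the descriptions. The receptors, lists and tests were chosen with earlier results of these data known, and the windows of 2 points of GC and 2 Mb after these values were seen. Named genes were all 9 receptors and, per list, every called gene, the gene of smallest p and the gene of highest level per kb, with the 3 genes most like the receptor of smallest p.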

Additional observations from a re-analysis of the deposited data

How the results depend on the processing

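Of the 9 receptors, 0 were called with TMM and in all alternatives except library totals alone, where 1 was, ITGB8. ITGB6, ITGB8 and ITGA2 kept their direction in every alternative run. Under library totals alone the log2 fold change was -0.19 for ITGAV, -0.18 for ITGB3, -0.0492 for ITGB5 and -0.0585 for DDR2, all below 0 where TMM gave values above it, beside a median of -0.27 for all genes. DDR1 changed sign with no filter on low counts (0.0013). With 1 library left out, values crossed 0 for ITGAV (-0.019 to 0.14), ITGA5 (-0.10 to 0.0244) and DDR1 (-0.0914 to 0.12). No adjusted p came from DESeq2 with its filter for 6 of the receptors, all but ITGB8, DDR1 and DDR2.

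Over all genes 140 were called with TMM. The count was 4194 under library totals alone (31 higher and 4163 lower), 88 and 46 with DESeq2 with and without its filter, 91 with limma-voom, 61 after GC correction (29 higher and 32 lower) and 65 with GC correction and the replicate block together. Leaving out 1 library gave 60 to 136, lowest without stiff replicate 2. The split was 49 higher and 46 lower when soft replicate 1 was left out, and 103 higher and 33 lower when soft replicate 3 was.

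The replicate block, with replicate number as a term, gave 173 calls, and ITGB8 had a log2 fold change of -0.32 there (edgeR adjusted p = 0.109). Deviations of libraries with the same number showed correlations close to 0 (0.00241, 0.00346 and -0.00363), as did stiff replicate 1 with soft replicate 3 (0.00529). Counting error can hide a shared deviation, so these values cannot decide whether the numbers pair the samples. The share of ITGB8 among the beta partners was 46.9% in stiff and 53.8% in soft in raw counts, and 22.7% in stiff and 27.7% in soft per kb. Counts of 40 to 282 per receptor and library limit what can be seen, and the widest interval, that of ITGB6, runs from 0.663-fold to 1.18-fold.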
